A study of Homo sapiens with 10 samples.

Results

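The 9 genes described here (CDKN1A, MDM2, GADD45A, BTG2, PHLDA3, FDXR, SESN1, ZMAT3 and CCNG1) are established transcriptional targets of the tumour suppressor p53. They were taken by name from a table of 19301 named features, and each of the 9 had 1 row. They were chosen by their FPKM in the same libraries, in which p53 targets had been seen to lie higher with a guide RNA than without one. Their differences from the cells without a guide are therefore given as a description, with no test.

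RNA with poly(A) tails was sequenced from HEK293FT cells, an established human embryonic kidney line, here with genes for the luciferases of Gaussia and Cypridina in its genome as reporters. In each well 125000 cells were transiently transfected with 59 ng of a plasmid for dCas9-VP64, a Cas9 protein that cannot cut DNA, fused to a transcriptional activator. In 4 groups, 11.6 ng of a plasmid for 1 guide RNA directed at the Gaussia reporter was added, and these groups carry the names of their guides: sgRNA, INT, P4P6 and TOP1. In the fifth group, CasVP, the activator was given with no guide, and RNA was taken 3 days after transfection in every group. Each group has 2 libraries, named here by group and by the index 0 or 1 of the value column, which was not matched to the replicate numbers of the labels. The labels do not say whether paired libraries are separate cultures, so p-values measure only the spread between these samples, which may be technical. The cells received the activator plasmid in all 5 groups, so CasVP is not an untransfected control.

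p53 is a DNA-binding transcription factor that is kept low by the ubiquitin ligase MDM2 and accumulates after DNA damage and other stresses. It then switches on genes for cell cycle arrest, repair, metabolism and cell death, and it switches on MDM2 itself, which closes a feedback loop. HEK293FT cells express the large T antigen of SV40, which binds p53 and impairs its function, so that the cells are a limited model of a normal p53 response.

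Levels are the deposited FPKM, that is fragments per kilobase of transcript scaled for library size, so levels may be compared between genes. Depth was estimated from the steps of very low values, taking the scaling to be by mapped fragments, which the sources do not state. It was between 19400000 and 28500000 fragments per library. At that depth the counting error of the 9 genes was between 1.46% and 6.93% of a level, largest for PHLDA3, without the variation between cultures. Of 9 genes typical of HEK293 cells, 6 were at 1 FPKM or more in every library, LHX1 was under 1 FPKM in every library, PAX2 was at 0.755 to 1.28 FPKM and KRT8 at 0.0224 to 8.79 FPKM. Of 5 markers of other cell types 4 were under 1 FPKM in every library and EPCAM reached 1.66 FPKM. The targeted Gaussia transcript stood at 176 to 822 FPKM in the guide groups, against 23.3 FPKM in CasVP.

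MDM2, the feedback ubiquitin ligase of p53, stood at 68.4 and 58.4 FPKM with sgRNA, 66.7 and 62.0 with INT, 66.4 and 47.5 with P4P6 and 69.8 and 61.5 with TOP1, against 55.8 and 52.6 FPKM in CasVP. Of the 8 guide libraries 7 lay above both CasVP libraries, while P4P6 replicate 1 was the lowest of all 10. The same number, 7, held for CDKN1A, BTG2, FDXR and SESN1. At least 7 guide libraries lay above both for 846 of 11574 tested features (7.31%). The estimate for all guides against CasVP was 0.20 on the log2(FPKM + 1) scale (limma SE 0.10). That scale understates the change of genes with low values.

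Part of the MDM2 promoter and the p53-like elements found near the starts of SESN1 and FDXR are shown, because a p53 response element is what links these genes to p53. The sequences are from the RefSeq promoter windows (build GRCh38.p14, 250 bases before to 50 after a transcription start), which held 15 windows for 7 of the 9 genes; GADD45A and PHLDA3 had none. Capitals mark stretches of 20 bases that match the p53 response element consensus (a decamer repeated end to end, the same on both strands) with at most 3 mismatches.
MDM2, chr12:68808903-68809000, plus strand: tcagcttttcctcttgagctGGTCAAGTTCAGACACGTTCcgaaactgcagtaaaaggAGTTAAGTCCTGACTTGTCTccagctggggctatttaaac
SESN1, chr6:109008998-109009057, minus strand: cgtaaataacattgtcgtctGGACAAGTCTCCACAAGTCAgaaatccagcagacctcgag
FDXR, chr17:74872996-74873015, minus strand: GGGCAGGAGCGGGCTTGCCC

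The MDM2 stretch lies before the internal start of the gene, the promoter through which p53 is known to act, and overlaps no annotated exon. The stretch around the FDXR element shares 37 bases with annotated FDXR exons, so only the element is shown. Its first element has 2 mismatches to the consensus and its second has 3, as have those of SESN1 and FDXR. Such an element was present in 4 of the 15 windows (26.7%), 2 of which are overlapping windows of MDM2, against 1826 of 35116 promoter windows of the same length (5.2%). Of the other p53 targets listed, 9 of 49 windows held one (18.4%). The windows of CDKN1A, BTG2, ZMAT3 and CCNG1 held none, which says only that these letters are not in those windows.

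CDKN1A encodes p21, the inhibitor of cyclin-dependent kinases through which p53 halts the cell cycle. It stood at 41.3 and 38.1 FPKM with sgRNA, 43.6 and 37.0 with INT, 39.0 and 32.3 with P4P6 and 40.2 and 35.3 with TOP1, against 33.5 and 29.6 FPKM in CasVP. Only P4P6 replicate 1 overlapped the CasVP libraries. The guide libraries averaged 38.4 ± 3.55 FPKM (SD, n = 8) against 31.6 ± 2.78 in CasVP (SD, n = 2), a ratio of 1.22 (estimate 0.27, SE 0.09).

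BTG2, an antiproliferative gene whose product binds deadenylases, was at 13.9 and 12.4 FPKM with sgRNA, 16.3 and 12.6 with INT, 13.4 and 10.0 with P4P6 and 13.2 and 11.3 with TOP1, against 10.1 and 9.53 FPKM in CasVP. The highest library was INT replicate 0, and again only P4P6 replicate 1 fell within the range of CasVP. The ratio of the guide mean to the CasVP mean was 1.31 (estimate 0.35, SE 0.11).

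CCNG1, which encodes cyclin G1, was the most abundant of the 9 genes and departed from the others. It was at 212 and 215 FPKM with sgRNA, 210.5 and 194 with INT, 185 and 194 with P4P6 and 225 and 216 with TOP1, against 199.6 and 211 FPKM in CasVP. Libraries of sgRNA and TOP1 lay above both CasVP libraries (24% and 24.7% of all features did) and those of P4P6 below both (28.1%). Over all guides the mean was 1.01 times that of CasVP (estimate 0.01, SE 0.04).

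GADD45A, a small protein of the DNA damage response, was at 53.6 and 45.1 FPKM with sgRNA, 52.3 and 49.9 with INT, 52.5 and 46.2 with P4P6 and 56.5 and 43.7 with TOP1, against 42.1 and 38.3 FPKM in CasVP. All 8 guide libraries were above both CasVP libraries, as was so for PHLDA3 but for no other member, and for 248 of 11574 tested features (2.14%). The 4 guide means lay within 49.3 and 51.1 FPKM, closer together than the replicates of any of these groups.

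SESN1 encodes sestrin 1, which restrains mTORC1 signalling. It was at 23.1 and 21.2 FPKM with sgRNA, 24.4 and 22.1 with INT, 20.5 and 19.6 with P4P6 and 23.6 and 20.6 with TOP1, against 19.2 and 19.8 FPKM in CasVP. The P4P6 libraries overlapped those of CasVP, and the libraries of the other 3 guides did not.

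FDXR encodes ferredoxin reductase, a mitochondrial enzyme of steroid and iron-sulfur cluster synthesis. It was at 19.4 and 15.9 FPKM with sgRNA, 17.0 and 15.1 with INT, 18.1 and 10.1 with P4P6 and 19.8 and 14.4 with TOP1, against 13.4 and 11.8 FPKM in CasVP. It had the widest range of the 9 genes, with its highest library, TOP1 replicate 0, at 1.95 times its lowest, P4P6 replicate 1. Between the P4P6 libraries alone the ratio was 1.79.

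PHLDA3, which encodes a repressor of AKT signalling, was at 15.2 and 14.5 FPKM with sgRNA, 18.9 and 15.1 with INT, 18.7 and 12.0 with P4P6 and 17.2 and 13.3 with TOP1, against 11.9 and 10.8 FPKM in CasVP. It had the largest estimate over all guides, 0.41 (SE 0.14), or 1.37 times the CasVP mean.

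ZMAT3, which encodes an RNA-binding zinc finger protein, was the least abundant, at 6.87 and 5.86 FPKM with sgRNA, 6.73 and 6.43 with INT, 6.02 and 5.43 with P4P6 and 6.35 and 6.12 with TOP1, against 5.87 and 5.53 FPKM in CasVP. Its sgRNA and P4P6 libraries overlapped those of CasVP.

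**Figure D1:**
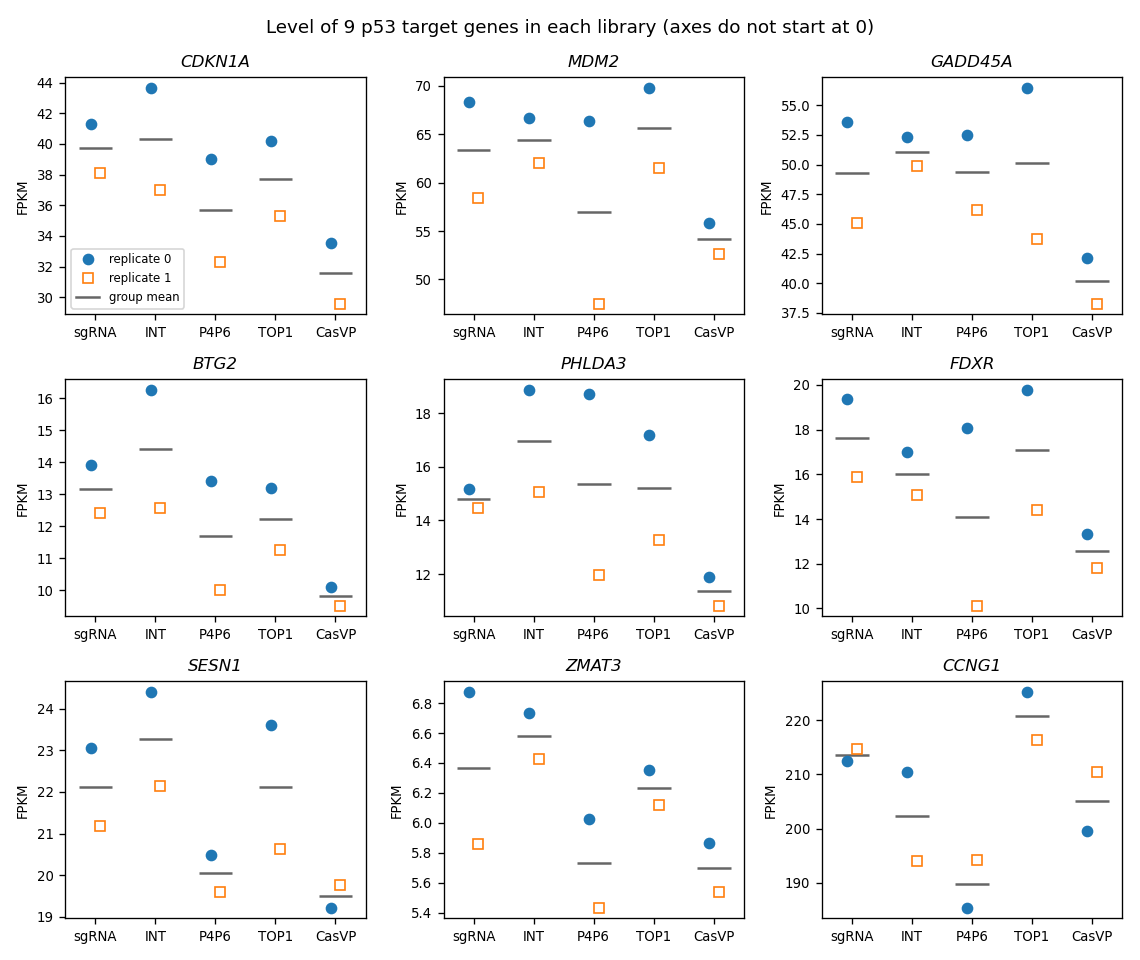
Level of each gene in FPKM (vertical axes, not starting at 0) in the 2 libraries of each group, with the group mean as a bar. In 8 of the 9 genes CasVP has the lowest mean, whereas CCNG1 is lowest with P4P6.

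The order of the groups was similar in most of the 9 genes. INT had the highest mean in 6 of them (CDKN1A, GADD45A, BTG2, PHLDA3, SESN1 and ZMAT3), TOP1 in MDM2 and CCNG1, and sgRNA in FDXR. CasVP had the lowest mean in 8 of them. Neighbours in these orders mostly overlapped: of 36 neighbouring pairs, libraries did not overlap in 6, namely sgRNA over CasVP in GADD45A and PHLDA3, sgRNA over P4P6 in SESN1, TOP1 over P4P6 in ZMAT3, and TOP1 over sgRNA and sgRNA over CasVP in CCNG1. All but TOP1 over sgRNA in CCNG1 had P4P6 or CasVP as the lower group. Where single groups were compared, 14.1% to 30.6% of all features did not overlap in a given direction. The share for neighbouring pairs over all features was not computed, so these 6 are a description.

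Against CasVP, the median estimate over the 9 genes was 0.28 with sgRNA, 0.33 with INT, 0.10 with P4P6 and 0.27 with TOP1, beside medians between -0.01 and 0.00 over all tested features. These comparisons share the CasVP libraries. Estimates lay above 0 for 9, 8, 8 and 9 genes in that order, but under quantile normalization the sign turned for CCNG1 with sgRNA and INT and for ZMAT3 with P4P6. Libraries were higher without overlap for 8 of 9 genes with sgRNA (24% of all features were), 8 with INT (20.3%), 2 with P4P6 (23.4%) and 9 with TOP1 (24.7%). Without P4P6 replicate 1 the median for P4P6 was 0.30, and without P4P6 replicate 0 it was 0.01.

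**Figure D2:**
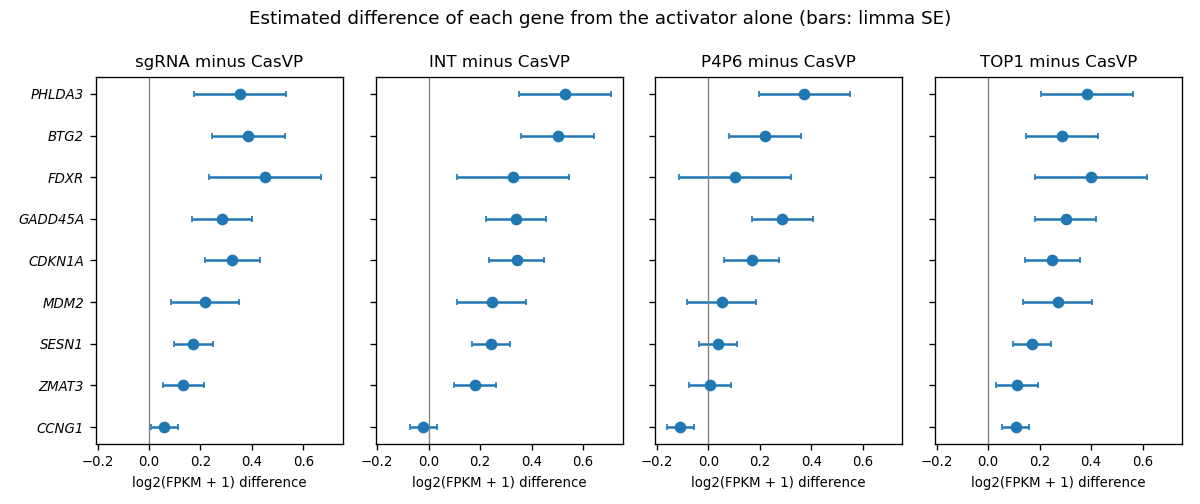
Estimated difference of each gene from CasVP on the log2(FPKM + 1) scale (horizontal axes), 1 panel per guide, with limma's SE as bars. PHLDA3, BTG2, GADD45A and CDKN1A lie to the right of 0 in all 4 panels, CCNG1 lies close to 0, and P4P6 has the smallest estimates for most genes.

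Apart from CCNG1 the genes varied together across the 10 libraries. Pearson's r of log2(FPKM + 1) between pairs of them was 0.70 to 0.97 with a median of 0.85 over the 28 pairs without CCNG1, and -0.01 to 0.46 over the 8 pairs with it. The points share libraries, group means and depth, so these values are a description. A mean standardized level was formed by centring each gene and dividing it by its SD over the libraries. It was 0.89 and -0.01 SD units with sgRNA, 1.09 and 0.12 with INT, 0.26 and -1.19 with P4P6 and 1.01 and -0.18 with TOP1, against -0.82 and -1.18 in CasVP. P4P6 replicate 1 therefore stood beside the CasVP libraries, and the other 7 guide libraries above them.

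Much of this common variation lay within groups. MDM2, CDKN1A, BTG2, GADD45A, PHLDA3, FDXR and ZMAT3 were higher in replicate 0 than in replicate 1 in all 5 groups, as were 1275 of 11574 tested features (11%), SESN1 was so in 4 groups and CCNG1 in 2. The median difference over the 9 genes between the indices was 0.15 with sgRNA, 0.14 with INT, 0.26 with P4P6 and 0.19 with TOP1, against 0.08 in CasVP (log2). In P4P6 the difference between the indices exceeded the median difference of 0.10 from CasVP, and with the other 3 guides it was smaller than theirs. Between libraries of the same index, the median difference from CasVP was 0.29 and 0.23 with sgRNA, 0.33 and 0.31 with INT, 0.25 and -0.01 with P4P6 and 0.32 and 0.22 with TOP1, for index 0 and 1. In P4P6 replicate 1, 4 of the 9 genes lay above CasVP replicate 1, and with sgRNA and TOP1 all 9 did at both indices. Over all features the median difference was -0.01 to 0.01 in such pairs of libraries. The genes were chosen for lying higher with guides, so these counts repeat that choice.

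**Figure D3:**
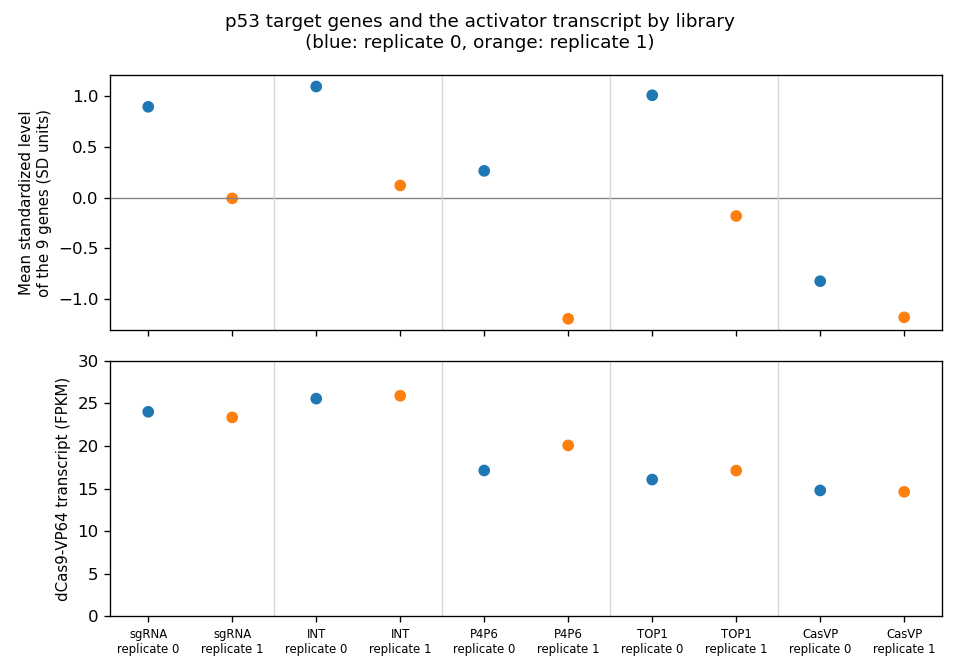
Mean standardized level of the 9 genes in SD units (top) and the dCas9-VP64 transcript in FPKM (bottom) in each of the 10 libraries, blue for replicate 0 and orange for replicate 1. The gene level is higher in replicate 0 in every group, whereas the activator transcript is highest with INT and sgRNA and shows no such order of the replicates.

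The activator's own transcript also differed between groups. dCas9-VP64 was at 23.7 FPKM with sgRNA, 25.7 with INT, 18.6 with P4P6 and 16.6 with TOP1, against 14.7 in CasVP. Across the 10 libraries the r of the mean standardized level was 0.48 with the activator transcript and -0.03 with estimated depth. It was 0.50 with the summed FPKM of a library and 0.69 with the Gaussia transcript. The part of any of these in the result was not tested. In a bulk library, a smaller share of cells with high levels and less RNA per cell cannot be told apart. The kit does not mark strand: annotated exons of CDKN1A share 146 bases with the antisense gene DINOL, and those of MDM2 share 785 bases with AC025423.4 and 133 with CPM on the opposite strand. SESN1 shares 363 with AL390208.1, also on the opposite strand. On the same strand PHLDA3 shares 598 of its 3138 exon bases with AC096677.2, and MDM2 shares 439 with AC025423.2, so reads of these genes and their partners cannot be told apart there.

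MDM4, an MDM2 relative that inhibits p53, stayed between 15.5 and 18.1 FPKM in all libraries (estimate over all guides 0.01, SE 0.06, limma adjusted p = 0.974).

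Other genes of the network were taken from lists, of whose 104 genes 97 were tested. For the list of regulators, 7 of 19 estimates over all guides lay above 0, with a median of -0.01. For targets in arrest, feedback and metabolism it was 22 of 28 with a median of 0.10, for DNA repair targets 7 of 7 with 0.14, and for cell death targets 6 of 11 with 0.00, beside 48.1% of all features and a median of 0.00. Those counts were 8, 22, 7 and 5 under quantile normalization. With limma 0 of the 97 genes passed over all guides, where 11 had an unadjusted p under 0.05 (7.43% of all features did), and 0.0173% of all features passed. In each guide's own comparison with CasVP 0 of the 97 passed with limma, where 0.0173% of all features passed with sgRNA and INT and 0.00864% with P4P6 and TOP1. At an unadjusted p under 0.05 there were 8 of the 97 with sgRNA (6.02% of all features), 12 with INT (8.86%), 26 with P4P6 (22.2%) and 14 with TOP1 (9.22%). For P4P6, some of the 97 passed without P4P6 replicate 0. That fit rests on a lone P4P6 library, so its calls are not read as a result. p53 targets as a class were already known to lie higher here, so these counts are not independent evidence.

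Among the repair targets, DDB2, a sensor of ultraviolet damage, stood at 30.7 ± 2.68 FPKM with guides (SD, n = 8) and 27.1 ± 1.44 in CasVP (SD, n = 2), and the nucleotide excision repair gene XPC at 29.1 ± 2.01 and 26.1 ± 0.947. POLH, a translesion polymerase, was at 11.3 ± 0.520 FPKM with guides and 10.2 ± 0.290 in CasVP, with no overlap, and AEN, an apoptosis-enhancing nuclease, at 57.8 ± 4.97 and 52.4 ± 3.71. Of the 28 arrest and metabolism targets, 4 were higher without overlap (CMBL, the kinase gene PLK2, IER5 and C12orf5) and DUSP14, a phosphatase gene, was lower (2.14% and 2.68% of all features); IER5, C12orf5 and DUSP14 are named after their values were seen. CMBL and PLK2 stood at 7.41 ± 0.516 against 6.33 ± 0.152 FPKM and 2.88 ± 0.181 against 2.36 ± 0.0457. The stress cytokine gene GDF15 and the kinase gene PLK3 had the estimates 0.33 (SE 0.19) and 0.27 (SE 0.15). None of these genes passed, with adjusted p values from limma of 0.669 to 0.765.

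Among cell death targets, TNFRSF10B, a death receptor gene, and APAF1, of the apoptosome, had estimates of 0.10 and 0.08 (limma adjusted p = 0.761 and 0.743). Of the regulators, CDKN2A, which encodes ARF and p16, had the largest, 0.23 (SE 0.15), and its TOP1 libraries stood at 115 and 69.6 FPKM. The acetyltransferase gene KAT5 and the kinase gene ATR stood at -0.11 and -0.07. The 20 cell cycle genes that p21 represses through the DREAM complex had 10 estimates above 0 and a median of 0.00, with CKS2, FOXM1, KIF20A and CENPF at -0.09, -0.06, -0.05 and -0.05.

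Between guides, differences of the 9 genes were tested with limma. TOP1 and sgRNA gave a median estimate of -0.00 over the 9 genes. With limma 0 passed (0.00864% of all features did), and 0 had an unadjusted p under 0.05 (1.68% of all features). CCNG1 alone was higher without overlap (15.1%). The 95% confidence intervals of single genes reached from -0.54 to 0.44, which is too wide to show that they act alike. Without TOP1 replicate 0 the median was -0.15. INT against sgRNA gave a median of 0.04, and with limma again 0 of 9 passed (0.00864% of all features) and 0 had an unadjusted p under 0.05 (8.77%), with intervals within -0.61 and 0.57. Of the 9 genes 0 were higher without overlap (19.7% of all features) and CCNG1 was lower (23.3%). The sign of the median over the 9 genes changed without INT replicate 0 (-0.03) or sgRNA replicate 1 (-0.06). Neither comparison had a gene of the other lists that passed, with 2 and 12 of 97 at an unadjusted p under 0.05.

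Between P4P6 and sgRNA 1331 of 11574 features passed with limma (11.5%), 4.33% higher and 7.17% lower. That count was 2 without P4P6 replicate 1, 1 without either sgRNA replicate, 2 with these groups fitted alone and 2046 without P4P6 replicate 0. Of the 9 genes 0 passed, 1 had an unadjusted p under 0.05 (30.3% of all features), and 7 estimates were below 0 with a median of -0.16, beside -0.01 for all features. CCNG1 and SESN1 were lower without overlap (30.6% of all features). The gene with the low unadjusted p was CCNG1, at 189.9 ± 6.26 FPKM with P4P6 and 214 ± 1.59 with sgRNA (SD, n = 2 each). Its difference of -0.17 (SE 0.05, 95% confidence interval -0.29 to -0.05) had a limma adjusted p of 0.0644. FDXR had the largest estimate, -0.35, with an interval of -0.83 to 0.14 and an adjusted p of 0.316. Without P4P6 replicate 0, FDXR (-0.74, adjusted p = 0.0216) and MDM2 (-0.40, adjusted p = 0.027) passed, as did 2046 of 11574 features; the lone P4P6 library, replicate 1, is there assumed to vary like the other groups. Without P4P6 replicate 1 the median over the 9 genes was 0.03.

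Of the 97 other genes, 13 passed with P4P6 against sgRNA (13.4%, 4 higher and 9 lower), near the share of all features. CREBBP and EP300, the coactivator acetyltransferases that bind p53, were higher with P4P6 than with sgRNA (limma adjusted p = 0.0221 and 0.025). They stood at 22.7 ± 0.238 and 25.8 ± 1.99 FPKM with P4P6, against 17.4 ± 0.776 and 20.3 ± 0.563 with sgRNA (SD, n = 2 each). Their CasVP means, 19.5 and 22.5 FPKM, lay between those of P4P6 and sgRNA. The p53 kinase gene HIPK2 was at 13.1 ± 0.0116 FPKM with P4P6, against 10.5 ± 0.26 with sgRNA (adjusted p = 0.0231) and a CasVP mean of 11.1. These 3 were the regulators that passed, of 19.

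Cell death and repair targets that passed were lower with P4P6 than with sgRNA. PMAIP1, which encodes the BH3-only protein NOXA, was at 141 ± 1.09 FPKM with P4P6, against 167 ± 2.50 with sgRNA (adjusted p = 0.0231). EI24 was at 101 ± 4.99, against 122 ± 5.50 (adjusted p = 0.0263). Their CasVP means were 159 and 113 FPKM, between those of P4P6 and sgRNA. DDB2 was at 28.4 and 26.2 FPKM with P4P6, against 34.5 and 32.3 with sgRNA (log2 difference -0.28, SE 0.07, adjusted p = 0.0325). Its CasVP mean was 27.1 FPKM, so P4P6 stood at the level of the activator alone and sgRNA above it. Of the arrest, feedback and metabolism targets 0 of 28 passed with limma, with 4 at an unadjusted p under 0.05.

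Of 20 cell cycle genes 4 passed: the transcription factor gene FOXM1 was higher (0.24, adjusted p = 0.0298), and the spindle checkpoint gene MAD2L1 (-0.26, 0.0231), CKS2 (-0.20, 0.0339) and the kinesin gene KIF23 (-0.19, 0.0401) were lower with P4P6. Of 12 genes of the integrated stress response, ATF4 (-0.26, 0.0251), PSAT1 (-0.20, 0.0326) and ASNS (-0.29, 0.0456) were lower. Under quantile normalization ATF4 turned to 0.04, PSAT1 was at -0.02 and ASNS at -0.13, with adjusted p values of 0.605, 0.752 and 0.318, and the median of the 12 genes was 0.02, against -0.06 without it. There the split of the 97 genes turned to 7 higher and 0 lower and that of all features to 298 higher and 91 lower, against 501 higher and 830 lower. CREBBP, EP300, HIPK2 and FOXM1 were the 4 of the 13 genes that still passed. The count was 0 without P4P6 replicate 1, sgRNA replicate 0 or sgRNA replicate 1, and 30 (6 higher, 24 lower) without P4P6 replicate 0.

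**Figure D4:**
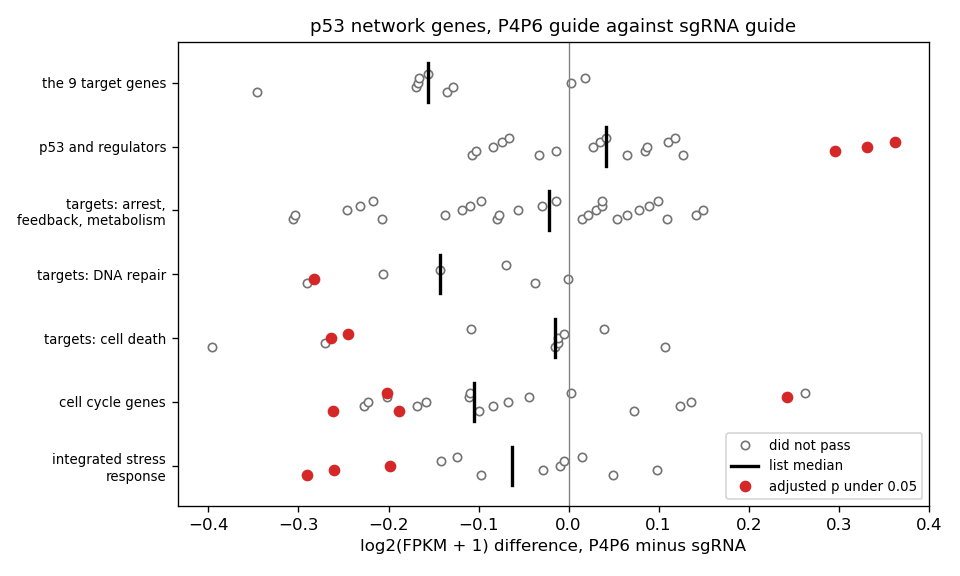
Estimated difference on the log2(FPKM + 1) scale (horizontal axis) between P4P6 and sgRNA for the 9 target genes and 97 other genes by list, 1 point per gene, filled where the limma adjusted p was under 0.05, with the list median as a bar. None of the 9 target genes is filled, and the 3 filled regulators lie on the right while filled repair and cell death targets lie on the left.

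The features whose pattern over the 10 libraries was most like the mean standardized level of the 9 genes were ARRDC3 (r = 0.98), NEFL (0.97), SULF1 (0.97), ARRDC4 (0.96), PTP4A1 (0.95) and KLF9 (0.95), among 9127 features with a mean of at least 5 FPKM. Spearman's rho was 0.915 to 0.988 for these 6, and r was 0.90 to 0.98 without P4P6 replicate 1 and CasVP replicate 1, the libraries farthest from the median. For comparison, CDKN1A had an r of 0.96, MDM2 0.94 and CCNG1 0.36 with the same mean, which contains them. Outside the 9 genes 35 features were above 0.9, the 6 named ones among them. PTP4A1, a phosphatase gene, is itself on the list of other p53 targets. ARRDC3 was at 2.78 to 7.48 FPKM and KLF9, with a much narrower range, at 15.4 to 17.3 FPKM.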

How the data were processed

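The authors deposited 1 table with an FPKM value for each feature in each of the 10 libraries; the unit was read from the tools named and from the values. The tools named in the submitters' processing notes are TopHat2 (2.0.13) and Cuffdiff (2.2.1), and the build is hg19. What each tool was set to do, which annotation served and how libraries were scaled is not given in the sources used here. Of 20246 features, 945 without a name (2.31 to 2.47% of summed FPKM) were left out. From the FPKM, log2(FPKM + 1) was computed, and the 11574 features with a mean of at least 1 FPKM were fitted with limma 3.58.1 in R 4.3.3 (intensity trend, a mean per group, all 10 libraries, two-sided, Benjamini-Hochberg over all tested features, threshold 0.05). The fit was tested on simulated data. Read counts were not used: depth was estimated from steps of low values in 322 features with GENCODE transcript lengths, and covers counting error only.

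The members and lists were chosen with earlier results of these data known. Named genes are all members, MDM4, genes that passed, and up to 4 per list with the largest estimate over all guides, except that some results are not reported here. Also named are the 6 features most like the members. The genes TRIM22, FAS and BUB1B, joined to another gene in the table, CDK1 and PIDD were not analysed here, and TP63 and TNFRSF10A were under the filter. Gene names are the table's own.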

Additional observations from a re-analysis of the deposited data

Results flagged for a closer look

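CCNG1 was the one gene of the 9 for which guides lay on opposite sides of the activator alone. Its P4P6 libraries, at 185 and 194 FPKM, were below both CasVP libraries, at 199.6 and 211 FPKM, as were those of 28.1% of all features. Its sgRNA libraries, at 212 and 215 FPKM, were above both (24% of all features). The sgRNA mean was 1.12 times the P4P6 mean, and the limma test of P4P6 against sgRNA gave an adjusted p of 0.0644. The TOP1 libraries, at 225 and 216 FPKM, were also above both (24.7% of all features). The P4P6 mean was 0.86 times the TOP1 mean, and that difference was not tested.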

How the results depend on the processing

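Under a pseudocount of 0.1, median-of-ratios rescaling and quantile normalization, the median estimate of the 9 genes moved by less than the replicate spread (0.143, log2) in every comparison. That spread exceeds the P4P6 median against CasVP itself, 0.10, so it is a loose bound there. No filter, a minimum mean of 5 FPKM, no trend, the compared groups alone and the replicate block were also run. These cannot change a gene's estimate in this balanced design, so they are no check of the median. Leaving out 1 library gave 0.162 to 0.381 for sgRNA, 0.226 to 0.407 for INT, 0.007 to 0.30 for P4P6, 0.158 to 0.36 for TOP1 and 0.184 to 0.358 for all guides, each against CasVP. Against sgRNA it gave -0.055 to 0.137 for INT, -0.283 to 0.029 for P4P6 and -0.146 to 0.092 for TOP1.

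No gene of the other lists passed against CasVP under any alternative, except with P4P6. There 8 passed with the replicate block, as did 600 of 11574 features. Some also passed there when 1 library was left out, which leaves a lone library in its group. For P4P6 against sgRNA, 13 passed. The count was 7 without the filter, 7 under quantile normalization, 6 without the trend, 0 with these groups alone, 27 with the replicate block and 0 to 30 when 1 library was left out. The cause was not tested.

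Correlations of the index differences between groups over 11574 features were -0.04 to 0.42, above 0.1 for 8 of 10 pairs of groups; since INT and TOP1 (-0.04) and TOP1 and CasVP (0.09) fell short, the index was not taken to pair the libraries, though these values show a shared difference in most groups. With the index as a replicate block, CCNG1 (limma adjusted p = 0.0457) and CDKN1A (0.0439) passed for P4P6 against sgRNA. Of all features 600 passed for P4P6 against CasVP and 2326 for P4P6 against sgRNA, where 1 and 1331 did without it. Estimated counting error was at most 6.93% of a level of the 9 genes.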

Other observations

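The integrated stress response list was not part of the p53 description. DDIT3, which encodes the stress factor CHOP, was lower in all 8 guide libraries, at 62.9 to 77.0 FPKM, than in CasVP, at 77.6 and 80.8 FPKM. Its estimate was -0.18 (SE 0.05, limma adjusted p = 0.669), and 2.68% of all features were lower without overlap. TRIB3, a pseudokinase gene induced by CHOP, averaged 43.9 ± 5.20 FPKM with guides (SD, n = 8) and 53.5 ± 3.78 in CasVP (SD, n = 2), and overlapped. VLDLR and SLC7A11 had estimates of 0.12 and 0.09. None of the 12 genes passed with limma over all guides, and 2 had an unadjusted p under 0.05 (7.43% of all features did).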
